A study of Mus musculus with 9 samples.

Results

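Slits, semaphorins, netrins and ephrins are the classical cues that steer growing axons and, outside the nervous system, blood vessels and migrating cells. Secreted slits bind ROBO receptors. Semaphorins bind plexins, with neuropilins as co-receptors for most secreted ones. Netrins bind DCC and UNC5 receptors, and ephrins bind Eph receptor tyrosine kinases on neighbouring cells. All of these receptors act on the cytoskeleton through small GTPases. Hepatic stellate cells wrap the liver's sinusoids, store vitamin A and, once activated, contract, migrate and lay down matrix. The genes described here are the 45 rows, of 14020 genes measured, whose symbol begins as that of a slit, ROBO receptor, semaphorin, plexin, neuropilin, netrin, UNC5 receptor, ephrin or Eph receptor. The rule used symbols and no measured values, but it was set with earlier results of these data known. One of the 45, Unc50, was taken in by its letters and is not a netrin receptor.

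RNA was sequenced from mouse hepatic stellate cells cultured for 4 days in serum-containing medium under basal conditions. The 9 libraries comprised 3 labelled Nbr1-Sqstm1 double-knock-out (DKO), 3 labelled Sqstm1 knock-out (Sqstm1 KO) and 3 labelled wild type (WT). Both knock-out groups carry the Sqstm1 deletion, and by the labels they differ in Nbr1. Sqstm1 encodes p62 and Nbr1 a related selective autophagy receptor, and by its title the series concerns their opposing effects on the STING pathway in these cells. The series' text speaks of biological replicates, but for an Nbr1 knock-out that was not analysed here. The labels do not give the allele or any Cre driver, the strain or age, or whether the replicates are separate animals or cultures, so p-values measure the spread between these libraries, which may be technical.

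The libraries held between 819677 and 1467793 counted reads. Sqstm1 averaged 45.7 ± 17.7 normalized counts in DKO, 52.8 ± 29.8 in Sqstm1 KO and 240 ± 16.1 in WT (SD, n = 3 each). An exon of Mrnip lies opposite an exon of Sqstm1, and the origin of the reads left in the knock-out groups was not tested. Nbr1 averaged 90.7 ± 17.5, 78.9 ± 8.85 and 101 ± 7.64 in the same 3 groups, and did not differ in the DKO libraries from Sqstm1 KO (adjusted p = 0.722) or WT (adjusted p = 0.735) by the test used here, so a gene-wide count did not check the Nbr1 label. Reads of 4 Y-linked genes summed to between 80 and 89 per library in DKO, 0 in every Sqstm1 KO library and between 129 and 292 in WT. In comparisons with Sqstm1 KO, genotype and this difference cannot be told apart. Sqstm1 KO replicate 3 stood apart, with correlations of 0.853 and 0.847 across genes with the other libraries of its group, while the remaining pairs within groups reached at least 0.878. Strandedness of the libraries is not given in the sources used here, and Pcsk7 averaged 10632 while Tagln, the contractile gene on the opposite strand, averaged 271. Whether counting took the wrong strand was not tested, and it would affect every value below. An exon of another gene lies opposite an exon of 8 of the 45 genes in GENCODE M21, against 36.5% of the matched genes of the table, and these are named where they are described.

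Of the labelled cell type's 16 listed markers, 9 had values, among them Col1a1, Col1a2, Acta2, Pdgfrb and Hgf, while Des, Lrat, Reln, Ngfr, Lhx2, Rgs5 and Cygb were not analysed here. Their summed level was between 3528 and 5925 in DKO, 4911 and 5562 in Sqstm1 KO and 1545 and 1667 in WT. In the endothelial list, whose cells use many of the same guidance receptors, 3 of 15 markers had values (Stab1, Stab2 and Eng), with sums of 183 to 271 in DKO, 91.7 to 350 in Sqstm1 KO and 91.6 to 120 in WT. Pecam1, Cdh5, Kdr and Tie1 were not analysed here. Neural and glial markers had values for S100b and Tubb3, 2 of 7, with sums of 38.2 to 53.5 in DKO, 22.5 to 42.3 in Sqstm1 KO and 8.17 to 18.1 in WT. The macrophage list had 4 of 9, with 14.3 to 29.3 in DKO, 8.68 to 12.3 in Sqstm1 KO and 20.3 to 35.4 in WT. The smooth muscle list had 4 of 6, with 141 to 182 in DKO, 179 to 221 in Sqstm1 KO and 34 to 45.2 in WT. The cholangiocyte list had 2 of 5 (25.8 to 49.1, 29.2 to 34.7 and 16.3 to 26.4 in the same order of groups). The portal fibroblast list had 4 of 10 (313 to 323, 231 to 432 and 202 to 244). None of the 6 lymphocyte and 5 hepatocyte markers was analysed here. The part of these differences in the guidance genes was not tested, and in bulk RNA fewer cells of a type and less RNA per cell cannot be told apart.

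Of the 45 genes, 29 had a normalized count of at least 10 in at least 3 libraries and were tested with limma on log2 of the value plus 1, with Benjamini-Hochberg adjustment over all 10118 genes tested and a threshold of 0.05. In DKO against WT, 10 of the 29 passed the threshold, 8 higher and 2 lower, against 6.42% of all tested genes (4.11% higher and 2.31% lower). In DKO against Sqstm1 KO, 4 were higher and 1 lower, against a background of 5.93% (4.42% higher and 1.51% lower). In Sqstm1 KO against WT, 6 were higher and 1 lower, against 5.61% (2.43% higher and 3.18% lower). In all, 11 of the 45 genes passed in some comparison. These counts do not stand for all 45, since a gene silent in 1 group entered the test through the groups where it was high. A group mean under 10 was seen in 16 of the 29 tested genes and in 7 of the 11 that passed. Among the 13 genes with at least 10 in all 9 libraries, a filter that leaves out genes silent in a group, 3 passed in each comparison. The share of all genes that passed under that filter is not given here, so this count has no background beside it.

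Values did not overlap between the 2 groups for 14 of the 29 in DKO against WT (31.2% of all tested genes), 14 in DKO against Sqstm1 KO (21.0%) and 13 in Sqstm1 KO against WT (26.0%). The median log2 fold change of the 29 was 0.14 in DKO against WT, 0.06 in DKO against Sqstm1 KO and -0.01 in Sqstm1 KO against WT, beside -0.02, -0.01 and -0.01 over all tested genes. Quantile normalization gave 0.14, -0.07 and 0.17, so the sign of the medians other than that of DKO against WT rested on the scaling. The median size of the change, without its sign, was 0.79, 0.74 and 0.80, beside 0.43, 0.41 and 0.41 over all tested genes. Among the 13 genes with at least 10 in all 9 libraries it was 0.28, 0.70 and 0.19 in the same order. In both comparisons with WT the size among those 13 was below that over the 29. The size over all genes under that stricter filter is not given here, so the 13 have no background beside them. In DKO against Sqstm1 KO, class 3 semaphorins passed in both directions, Sema3c higher and Sema3a lower. The number in DKO against WT was 6 without WT replicate 1, WT replicate 2 or DKO replicate 3, and that in DKO against Sqstm1 KO was 3 without DKO replicate 1 or DKO replicate 3. Without Sqstm1 KO replicate 3 the counts were 10, 6 and 7 in the same order.

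**Figure D1:**
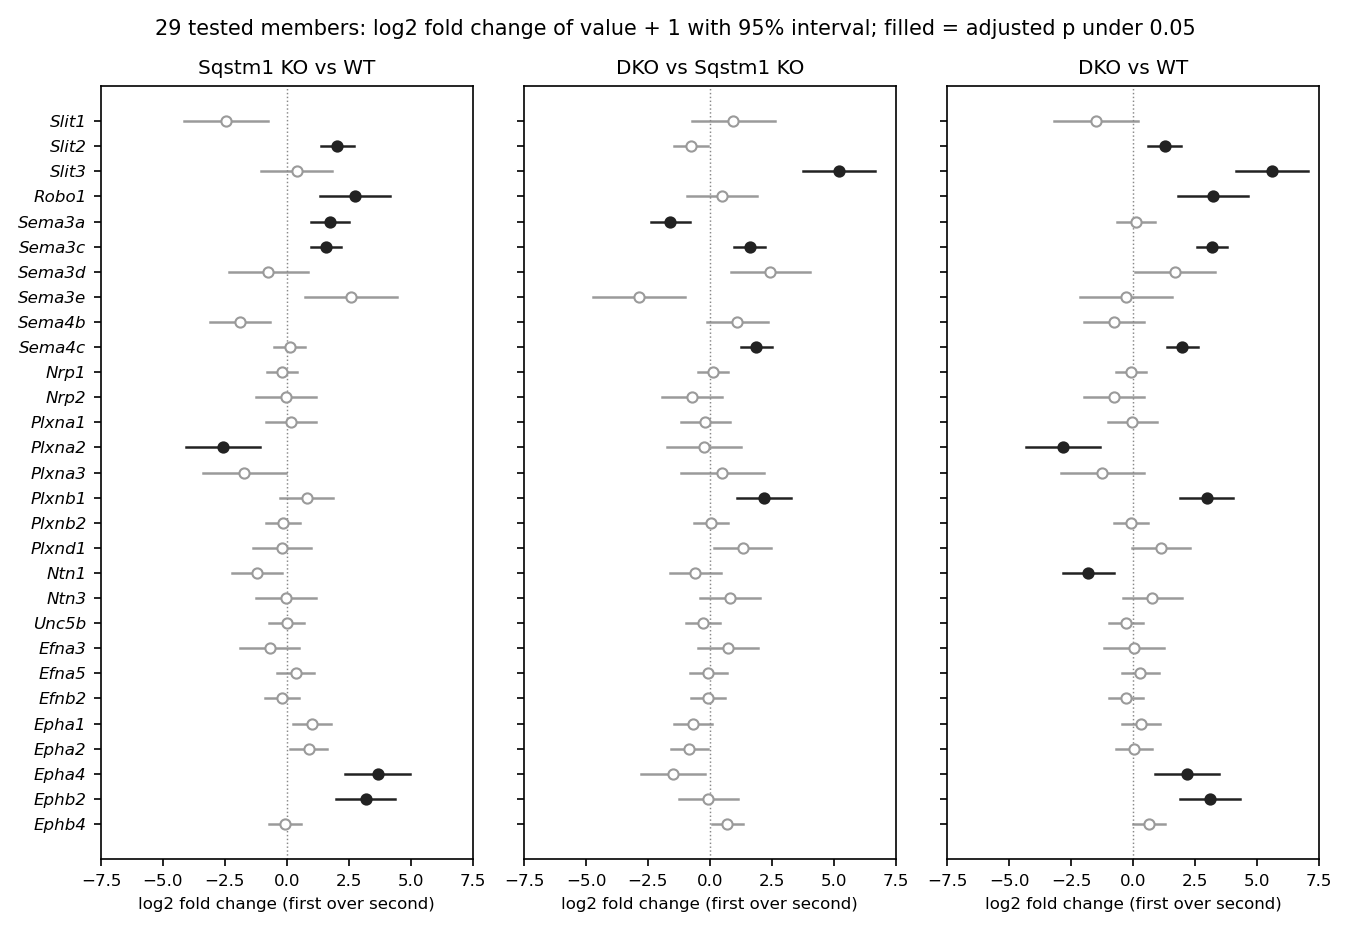
Log2 fold changes (of the value plus 1) with 95% intervals for the 29 tested guidance genes, 1 panel per comparison and genes ordered by role. Filled points have an adjusted p under 0.05, which holds for 7 genes in Sqstm1 KO against WT, 5 in DKO against Sqstm1 KO and 10 in DKO against WT.

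The start regions of 4 of these genes, picked after their values were seen, are shown because Slit2 and Slit3, and Sema3a and Sema3c, are relatives within a family whose values were highest in different groups. They come from RefSeq on GRCm38.p6, whereas the counts rest on GRCm39 per the submitters' processing notes, and each spans 250 bases before to 50 after the annotated start, in the direction of the gene. RefSeq had such a window for 40 of the 45 genes. Capitals mark a GC box (GGGCGG on either strand) or a TATA box (TATAAA on either strand).
Slit3, chr11:35121206-35121505, plus strand: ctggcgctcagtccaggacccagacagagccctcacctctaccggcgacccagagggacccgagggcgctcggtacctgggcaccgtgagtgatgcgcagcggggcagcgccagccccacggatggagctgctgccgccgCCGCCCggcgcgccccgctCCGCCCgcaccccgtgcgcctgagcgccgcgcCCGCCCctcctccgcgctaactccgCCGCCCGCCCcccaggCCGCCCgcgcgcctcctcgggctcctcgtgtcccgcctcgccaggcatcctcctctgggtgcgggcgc
Slit2, chr5:47982905-47983204, plus strand: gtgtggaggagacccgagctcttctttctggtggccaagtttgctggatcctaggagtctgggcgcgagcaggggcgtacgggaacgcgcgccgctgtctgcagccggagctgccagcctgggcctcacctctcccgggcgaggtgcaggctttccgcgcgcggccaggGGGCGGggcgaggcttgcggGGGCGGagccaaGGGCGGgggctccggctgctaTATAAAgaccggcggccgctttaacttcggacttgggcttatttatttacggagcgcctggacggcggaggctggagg
Sema3c, chr5:17574566-17574865, plus strand: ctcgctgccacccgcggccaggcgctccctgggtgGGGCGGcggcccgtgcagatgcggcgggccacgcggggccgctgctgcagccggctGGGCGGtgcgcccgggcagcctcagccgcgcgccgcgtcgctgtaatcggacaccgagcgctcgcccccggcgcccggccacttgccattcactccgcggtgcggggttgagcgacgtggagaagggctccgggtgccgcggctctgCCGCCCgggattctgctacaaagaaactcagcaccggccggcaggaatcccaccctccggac
Sema3a, chr5:13396534-13396833, plus strand: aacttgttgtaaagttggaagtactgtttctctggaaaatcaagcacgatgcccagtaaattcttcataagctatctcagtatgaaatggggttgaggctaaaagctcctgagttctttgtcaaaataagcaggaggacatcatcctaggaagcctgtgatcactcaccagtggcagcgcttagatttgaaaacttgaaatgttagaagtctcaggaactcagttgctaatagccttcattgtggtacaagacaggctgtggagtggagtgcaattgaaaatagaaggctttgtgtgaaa
The Slit3 window held 6 GC boxes, of which a pair overlap, the Sema3c window 3, the Slit2 window 3 and a TATA box, and the Sema3a window neither. A GC box was present in 35.7% and a TATA box in 13.6% of all 32851 windows of this length. The dinucleotide CpG occurred 41 times in the Slit3 window, 42 in Sema3c, 30 in Slit2 and 2 in Sema3a, beside a median of 7 over all windows. Searches on both strands for an AP-1 site (TGANTCA, in 7.81% of windows) and a TEAD site (GGAATG, 14.7%) found no match in these 4 windows, which says that the letters are not there and nothing about the factors.

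Slit3 RNA, for a secreted ligand of ROBO receptors, was present in DKO cells and nearly absent from both other groups. Its normalized counts were 66, 53.7 and 56 in the DKO libraries, against 3.06, 0 and 0 in Sqstm1 KO and 0, 0.753 and 0 in WT. All 3 DKO libraries lay far above the other 6, in which it rested on 3 and 1 reads per group, against 160 in DKO. The ratio of reads per library size was 61.7 over Sqstm1 KO (95% exact interval 20.8 to 303, counting error only) and 219 over WT (38.8 to 8717). Slit3 rose in DKO against Sqstm1 KO (log2 fold change 5.22, SE 0.67, adjusted p = 0.000266) and against WT (5.62, SE 0.67, adjusted p = 0.000127). The fitted sizes depend on the pseudocount and were 3.43 to 5.93 and 3.6 to 7.58 over the alternatives tried, with the call kept in each of them. Sqstm1 KO and WT did not differ by this test (adjusted p = 0.789).

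Slit2, the slit best known from midline axon repulsion, rose in both knock-out groups against WT. Its normalized counts were 50.7, 47.9 and 42 in DKO, 90.9, 103 and 54.2 in Sqstm1 KO and 16.3, 15.8 and 24.9 in WT. No WT library reached any library of the other groups, and the Sqstm1 KO values all exceeded those of DKO. The log2 fold change was 2.04 in Sqstm1 KO against WT (SE 0.31, adjusted p = 0.00138) and 1.28 in DKO against WT (SE 0.31, adjusted p = 0.0247). In DKO the adjusted p was 0.0882 and 0.13 when WT replicate 1 or 2 was omitted, and 0.0817, 0.0562 and 0.0686 on omitting DKO replicate 1, 2 or 3, each of which ended the call. DKO against Sqstm1 KO did not pass (adjusted p = 0.208). Both of these comparisons with WT use the same WT libraries.

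Slit1, the third slit, had 12.4, 1.14 and 5.09 in DKO, 6.13, 2.43 and 0 in Sqstm1 KO and 23.2, 12.1 and 11.5 in WT, with no comparison past the threshold (adjusted p between 0.0921 and 0.554). Robo1, the receptor that transmits slit repulsion, had 7.65, 16 and 15.3 in DKO, 4.08, 16.2 and 8.68 in Sqstm1 KO and 0, 0 and 1.82 in WT. The WT libraries together held 3 reads of it, and the 2 knock-out groups overlapped each other. Robo1 rose in DKO against WT (ratio of reads per library size 15.5, 95% exact interval 4.89 to 79.1, limma adjusted p = 0.00832) and in Sqstm1 KO against WT (12.6, 3.95 to 64.5, adjusted p = 0.025). The call in DKO was lost without DKO replicate 3 (adjusted p = 0.0517). That in Sqstm1 KO ended on omitting WT replicate 1 or 2 (0.0984 and 0.105) or Sqstm1 KO replicate 2 (0.0953) and in a fit of those 2 groups alone (0.0508). RNA of Slit2 and of the receptor Robo1 was thus higher in both knock-out groups than in WT. Of these calls, only that of Slit2 in Sqstm1 KO was kept whichever library was omitted. Slit1 averaged 6.22 in DKO and 2.85 in Sqstm1 KO, below its 15.6 in WT, without passing. Slit3 was high in DKO alone.

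**Figure D2:**
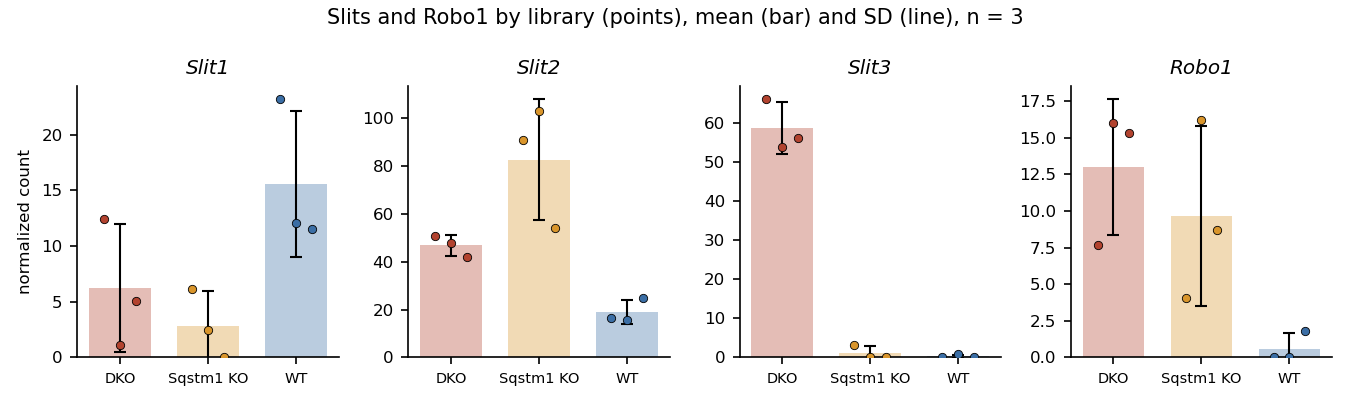
Normalized counts of the 3 slits and Robo1 in each library (points), with the group mean (bar) and SD (line), for DKO, Sqstm1 KO and WT (n = 3 each). Slit3 stood at 53.7 to 66 in DKO and at most 3.06 elsewhere, while Slit2 was highest in Sqstm1 KO.

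Class 3 semaphorins are the secreted members of their family and signal through neuropilins and plexins. Sema3c, known for its part in outflow tract and vascular development, was graded over the 3 genotypes. Its normalized counts were 128, 150 and 130 in DKO, 31.6, 58.4 and 45.6 in Sqstm1 KO and 15, 12.1 and 15.2 in WT, and no 2 groups overlapped. It rose in DKO against WT (log2 fold change 3.19, SE 0.29, adjusted p = 1.16e-05) and in DKO against Sqstm1 KO (1.61, SE 0.29, adjusted p = 0.00359). In Sqstm1 KO it rose against WT (1.58, SE 0.29, adjusted p = 0.00459). It was the sole gene of the 45 to pass in all 3 comparisons, and each call was kept in every alternative tried.

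Sema3a, the prototype axon repellent, was high in Sqstm1 KO alone. Its normalized counts were 48.8, 86.8 and 29.3 in DKO, 155, 192 and 118 in Sqstm1 KO and 35.4, 54.2 and 47.9 in WT. Every Sqstm1 KO library lay above the other 6, and DKO and WT overlapped. It fell in DKO against Sqstm1 KO (log2 fold change -1.59, SE 0.36, adjusted p = 0.0167) and rose in Sqstm1 KO against WT (1.73, SE 0.36, adjusted p = 0.0107), whereas DKO against WT did not pass (adjusted p = 0.861). The fall was lost without Sqstm1 KO replicate 2 (adjusted p = 0.0629) or DKO replicates 1 or 3 (0.0607 and 0.0959), and the rise without WT replicate 1 (0.0689). Sema3a and Sema3c thus went in opposite directions between DKO and Sqstm1 KO, each by about the same log2 amount.

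The other class 3 genes were low. Sema3e, a repellent that acts through plexin D1, had 0, 6.85 and 0 in DKO, 11.2, 17.9 and 11.9 in Sqstm1 KO and 0, 3.01 and 2.43 in WT. Sema3d had 10.5, 11.4 and 11.5 in DKO, 5.1, 0.812 and 0 in Sqstm1 KO and 1.36, 6.78 and 1.82 in WT. In both, 1 group lay apart from the others, Sqstm1 KO for Sema3e and DKO for Sema3d, but no comparison passed the threshold (adjusted p from 0.0742 for Sema3e and from 0.0766 for Sema3d). Sema3f and Sema3b were not tested, with values of 1.36 to 11.5 and 0 to 7.59 over the 9 libraries. Sema3a, Sema3c, Sema3d and Sema3e lie on chromosome 5 with Slit2. Slit3 and Ntn1 lie on chromosome 11, the chromosome of both Sqstm1 and Nbr1, as do Grb10 and Arhgef15, described below. Distances to Sqstm1 and Nbr1 were not computed. Whether sharing a chromosome with a deleted gene bears on these values was not tested, and with these labels it cannot be told apart from genotype.

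**Figure D3:**
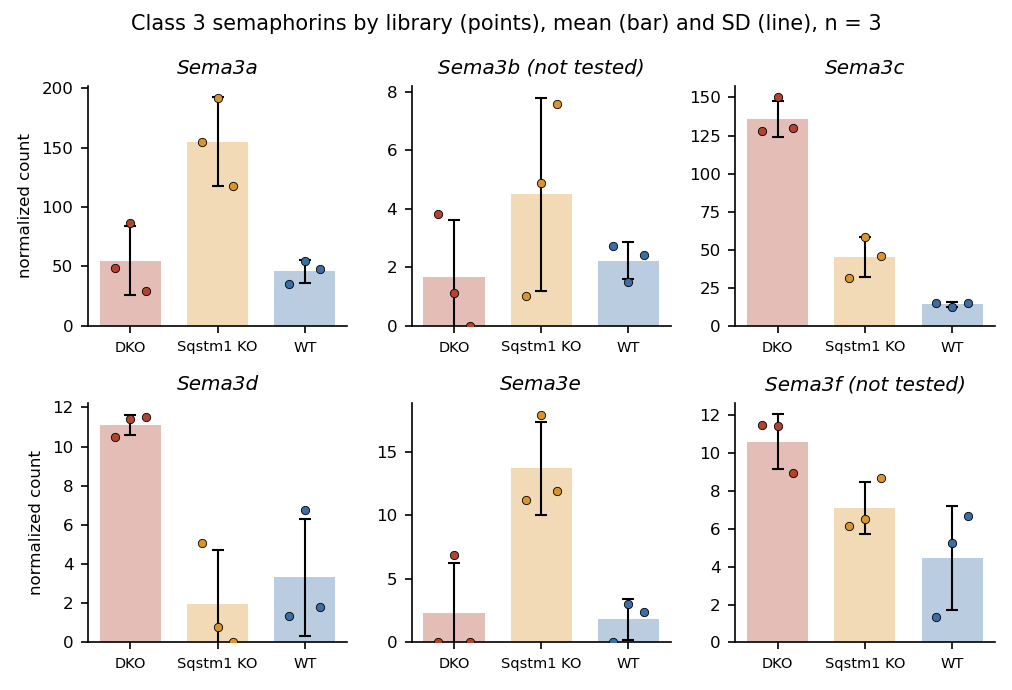
Normalized counts of the 6 class 3 semaphorins in each library (points), with the group mean (bar) and SD (line), for DKO, Sqstm1 KO and WT (n = 3 each). Sema3c was highest in DKO, Sema3a and Sema3e in Sqstm1 KO.

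Among membrane-bound semaphorins, Sema4c, a ligand of plexin B2, was high in DKO. Its normalized counts were 208, 139 and 149 in DKO, 36.8, 56 and 40.1 in Sqstm1 KO and 55.8, 32.4 and 35.8 in WT. The DKO libraries lay above all others, and Sqstm1 KO and WT overlapped. It rose in DKO against Sqstm1 KO (log2 fold change 1.88, SE 0.30, adjusted p = 0.00137) and against WT (1.99, SE 0.30, adjusted p = 0.00081), in every alternative tried, while Sqstm1 KO against WT did not pass (adjusted p = 0.869). Sema4c overlaps an exon of D430040D24Rik on the opposite strand, which was not analysed here. Sema4b had group means of 9.82 ± 5.57 in DKO, 4.3 ± 2.79 in Sqstm1 KO and 16.6 ± 5.17 in WT (SD, n = 3) and passed in no comparison (adjusted p from 0.0728). Sema4d, the plexin B1 ligand, and Sema4g, Sema5a, Sema6c and Sema6d were not tested, with values between 0 and 16.6.

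Of 7 plexins, 6 were tested, and Plxnb1 and Plxna2 changed. Plxnb1, the receptor of SEMA4D that signals to RhoA, had 44, 21.7 and 22.9 in DKO, 5.1, 5.68 and 5.42 in Sqstm1 KO and 1.36, 2.26 and 5.46 in WT. The DKO values lay above all others. It rose in DKO against WT (log2 fold change 2.98, SE 0.51, adjusted p = 0.00242) and against Sqstm1 KO (2.18, SE 0.51, adjusted p = 0.0195). The call against Sqstm1 KO was lost without Sqstm1 KO replicate 1 (adjusted p = 0.0521) or DKO replicates 1 or 3 (0.107 and 0.0559). Its exon overlaps Gm7628, which was at 5.58 ± 1.12 in DKO, 4.9 ± 6.49 in Sqstm1 KO and 1.31 ± 0.535 in WT (SD, n = 3). Plxna2, a receptor of class 3 and class 6 semaphorins, fell in both knock-out groups, with 2.87, 2.28 and 0 in DKO, 1.02, 4.06 and 1.08 in Sqstm1 KO and 21.8, 12.1 and 13.9 in WT. The WT libraries lay above all 6 others, by a log2 fold change of -2.82 in DKO (SE 0.69, adjusted p = 0.0256) and -2.57 in Sqstm1 KO (SE 0.69, adjusted p = 0.0452). These calls were fragile. In DKO the adjusted p was 0.119, 0.0927 and 0.108 without WT replicates 1, 2 and 3 and 0.0914 without DKO replicate 3. In Sqstm1 KO it was 0.199, 0.142 and 0.144 without those WT libraries, 0.115 and 0.0639 without Sqstm1 KO replicates 1 and 3, 0.0797 with a pseudocount of 0.5 and 0.075 with quantile normalization.

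Plxnb2, a receptor of SEMA4C, stood at 126 ± 28 in DKO, 127 ± 52.8 in Sqstm1 KO and 131 ± 10.2 in WT (SD, n = 3). Nrp1, the co-receptor for SEMA3A and VEGF, stood at 125 ± 18.7 in DKO, 118 ± 38.7 in Sqstm1 KO and 131 ± 13.6 in WT. The groups overlapped for both genes, and no comparison passed (adjusted p of at least 0.852 for Plxnb2 and 0.751 for Nrp1). Nrp2, Plxna1, Plxna3 and Plxnd1 passed in none either, with means over the 9 libraries of 12.7, 26, 9.47 and 10.4. Plxna1 overlaps an exon of Gm26811, which was not analysed here. Plxnc1, the receptor of SEMA7A, was not tested. It had no read in DKO, against 9 in Sqstm1 KO and 31 in WT. With DKO set to the floor of 3 counts over the group, the ratio of WT over DKO was 7.54, a bound and not the size of the difference. That ratio leaves out the counting error of the WT reads.

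Ntn1, the founding netrin, had 4.78, 5.71 and 5.09 in DKO, 4.08, 8.12 and 16.3 in Sqstm1 KO and 20.4, 21.1 and 20 in WT. Every WT value exceeded those of the knock-out groups. It fell in DKO against WT (log2 fold change -1.80, SE 0.47, adjusted p = 0.0354), and Sqstm1 KO against WT did not pass (adjusted p = 0.17). Omitting any library of these 2 groups ended the call, with adjusted p of 0.104, 0.15 and 0.128 for WT replicates 1 to 3 and 0.0901, 0.0569 and 0.1 for DKO replicates 1 to 3. Ntn4, a basement membrane netrin that was not tested, had no read in DKO, against 11 in Sqstm1 KO and 13 in WT. With DKO set to the same floor, the ratio over DKO was 3.17 for Sqstm1 KO and 3.16 for WT, again bounds and not sizes. These ratios leave out the counting error of the reads in the other groups. Ntn3 ranged from 2.43 to 20.4 over the 9 libraries, passed in no comparison and overlaps BC028777 on the other strand, which was not analysed here. The netrin receptor Unc5b stood at 51 ± 18.5 in DKO, 61.1 ± 17.6 in Sqstm1 KO and 59.5 ± 2.06 in WT (SD, n = 3), with adjusted p of at least 0.664.

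In the Eph system, the genes that passed were receptors, while most ephrins fell short of the filter and were not tested. Epha4, which binds ephrins of both classes, had 9.56, 11.4 and 2.55 in DKO, 20.4, 23.5 and 18.4 in Sqstm1 KO and 0, 0.753 and 1.82 in WT. The 3 groups did not overlap. It rose in Sqstm1 KO against WT (log2 fold change 3.67, SE 0.61, adjusted p = 0.00239) in every alternative that gave a value. In DKO against WT it stood just inside the threshold (2.19, SE 0.61, adjusted p = 0.0476), with adjusted p up to 0.151 when single libraries were left out, 0.0734 with a pseudocount of 5, 0.0604 in a fit of those 2 groups alone and 0.0542 with a replicate block. The libraries whose omission ended that call were WT replicates 1, 2 and 3 (adjusted p = 0.149, 0.131 and 0.0607), Sqstm1 KO replicates 1 and 2 (0.0769 and 0.0705) and DKO replicates 1 and 2 (0.151 and 0.127). DKO against Sqstm1 KO did not pass (adjusted p = 0.206).

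Ephb2, a receptor of B-type ephrins, had 10.5, 9.13 and 8.92 in DKO, 10.2, 7.3 and 13 in Sqstm1 KO and 0, 0.753 and 0 in WT, where 1 read was counted. Both knock-out groups lay above WT and overlapped each other. The ratio of reads per library size was 35.6 in DKO over WT (95% exact interval 5.86 to 1461, limma adjusted p = 0.00358) and 36.7 in Sqstm1 KO over WT (6.12 to 1496, adjusted p = 0.00367), and both calls were kept in every alternative that gave a value. Epha1, which overlaps an exon of Zyx on the other strand, stood at 76 ± 11.7 in DKO, 129 ± 54.2 in Sqstm1 KO and 65 ± 33.5 in WT (SD, n = 3). It passed in no comparison, and nor did Zyx, which encodes zyxin, at 75.3 ± 8.17, 74.7 ± 21 and 45.8 ± 4.81 in the same groups. Epha2 and Ephb4, the venous receptor of ephrin B2, passed in none (adjusted p from 0.18 and 0.216). Ephb4 overlaps Zan, which was not analysed here. Epha7 and Ephb3 were not tested, with values of 1.14 to 6.51 and 3.01 to 12.3.

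Of the 7 ephrins, those tested passed in no comparison, and the rest were not tested. Efna3, which overlaps Gm15998, Efna5 and Efnb2 were tested, with means over the 9 libraries of 12.9, 19.5 and 31.7 and adjusted p of at least 0.507, 0.619 and 0.68. An unadjusted p under 0.05 was reached by none of them. Efna1, Efna2, Efna4, which overlaps 4731419I09Rik, and Efnb1 were not tested. Efnb1, a transmembrane ligand of EphB receptors, had 11.5, 14.8 and 7.64 in DKO, 5.1, 1.62 and 4.34 in Sqstm1 KO and 1.36, 0.753 and 1.21 in WT, with no overlap between groups, and missed the filter with 2 libraries at 10 or more. Efna1, a GPI-anchored ligand, rested on 1 read in DKO, 13 in Sqstm1 KO and 15 in WT. Of the 16 genes not tested, the highest single value was 16.6 and the means over the 9 libraries ranged up to 7.52, that of Unc50.

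**Figure D4:**
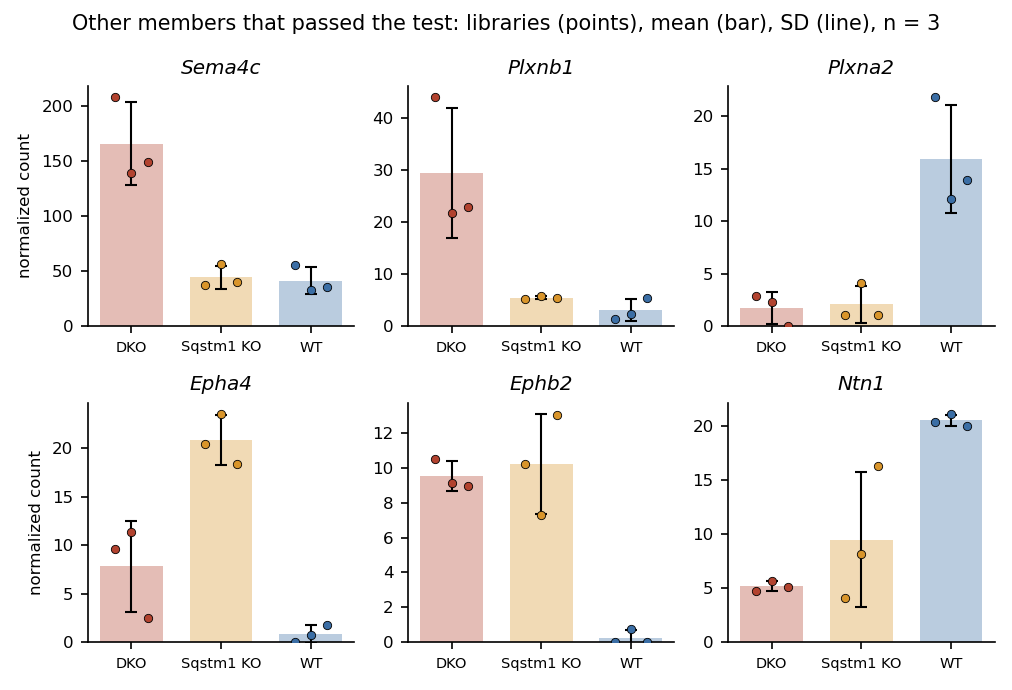
Normalized counts of the other 6 genes that passed in some comparison, in each library (points), with the group mean (bar) and SD (line), for DKO, Sqstm1 KO and WT (n = 3 each). Sema4c and Plxnb1 were highest in DKO, Epha4 in Sqstm1 KO, and Plxna2 and Ntn1 in WT.

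Genes that work with these cues were taken from a list of 111 co-receptors, alternative ligands, proteases and cytoskeletal effectors, of which 95 had values and 83 were tested. The list was drawn up with earlier results of these data known. In DKO against WT, 6 rose and 2 fell, beside 6.42% of all tested genes called. In DKO against Sqstm1 KO, 2 rose and 5 fell, beside 5.93%. In Sqstm1 KO against WT, 5 rose and 0 fell by limma (0 fell by edgeR and 1 by DESeq2), beside 5.61%, a share near that of the list. In that comparison 7 of the 83 were lower at an unadjusted p under 0.05, which is 8.43%, beside 10.3% of all tested genes. The list's median log2 fold changes were -0.07, 0.02 and 0.01. Without WT replicates 1, 2 or 3 the 8 calls in DKO against WT were 3, 3 and 2, without DKO replicates 1, 2 or 3 they were 3, 4 and 3, and without Sqstm1 KO replicate 3 they were 16. The 7 in DKO against Sqstm1 KO were 4 without DKO replicate 2 and 2 without DKO replicate 3. The 5 in Sqstm1 KO against WT were 3 without WT replicates 1 or 3.

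Of this list, Grb10, an adaptor of receptor tyrosine kinases, averaged 117 ± 12.6 in DKO, 169 ± 62.9 in Sqstm1 KO and 26.8 ± 3.88 in WT (SD, n = 3) and rose in both knock-out groups against WT (adjusted p = 0.00054 in DKO and 0.000134 in Sqstm1 KO). Adgrl2, a latrophilin that binds FLRT proteins, averaged 27.9 ± 10.5 in DKO, 27.1 ± 1.4 in Sqstm1 KO and 6.49 ± 3.53 in WT. It rose in DKO against WT (adjusted p = 0.0085) and in Sqstm1 KO against WT (0.00884, lost without WT replicate 1 at 0.0519), and its exons overlap Gm43573. Ablim1, an actin-binding protein, rose in Sqstm1 KO (34.9 ± 14.3, against 6.4 ± 1.81 in WT, adjusted p = 0.00764). Mmp14, a membrane metalloproteinase, rose in DKO (287 ± 17.2, against 125 ± 12.5 in WT, adjusted p = 0.0197), as did Arhgef15, an exchange factor for RhoA downstream of EphA receptors (26.7 ± 9.83, against 5.94 ± 1.41, adjusted p = 0.0401). Leaving out any 1 WT or DKO library ended both calls, with adjusted p from 0.0554 to 0.0798 for Mmp14 and from 0.0729 to 0.157 for Arhgef15, which also reached 0.051 with a pseudocount of 0.5. In Sqstm1 KO, Mmp14 stood at 273 ± 116 (adjusted p = 0.0435), a call lost when any library but Sqstm1 KO replicates 1 and 2 was left out (up to 0.163) and in a fit of those 2 groups alone (0.0948). Mmp14 is named there after its values were seen.

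Between DKO and Sqstm1 KO the FLRT proteins, membrane ligands of UNC5 receptors and latrophilins, went opposite ways. Flrt1 was at 27.7, 33.1 and 24.2 in DKO, against 11.2, 9.74 and 3.25 in Sqstm1 KO, and rose (adjusted p = 0.0216). Flrt3 was at 3.82, 1.14 and 0 in DKO, against 10.2, 19.5 and 22.8 in Sqstm1 KO, and fell (adjusted p = 0.0273). Flrt2, named after its values were seen, was at 0, 9.13 and 7.64 in DKO, against 27.6, 38.1 and 29.3 in Sqstm1 KO, and fell as well (adjusted p = 0.0281). No library of one group reached the other for any of the 3. The Flrt1 call was lost without DKO replicates 1, 2 or 3 (adjusted p = 0.0667, 0.0709 and 0.0616), that of Flrt2 without Sqstm1 KO replicates 1 or 2 (0.058 and 0.0842), and that of Flrt3 without Sqstm1 KO replicates 1, 2 or 3 (0.0514, 0.103 and 0.0578) or DKO replicates 2 or 3 (0.0552 and 0.105). In a fit of the 2 groups alone the adjusted p was 0.0731 for Flrt1 and 0.0749 for Flrt2, and with a pseudocount of 0.5 it was 0.0541 for Flrt3. Flrt3 had also risen in Sqstm1 KO against WT, where it averaged 17.5 ± 6.52, against 0.956 ± 0.831 in WT (adjusted p = 0.0184, lost without WT replicate 3 at 0.0843 or Sqstm1 KO replicate 2 at 0.0665). In WT, Flrt1 averaged 15.8 ± 2.86 and Flrt2 8.17 ± 3.09, and neither passed in Sqstm1 KO against WT (adjusted p = 0.211 and 0.157). Flrt1, Flrt2 and Flrt3 did not pass in DKO against WT (adjusted p = 0.3, 0.459 and 0.874).

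Among cytoskeletal effectors, Dpysl3, a collapsin response mediator protein of the semaphorin pathway, was lower in DKO than in Sqstm1 KO (67.9 ± 25.7, against 199 ± 20.2, SD, n = 3, adjusted p = 0.00264). WT lay between them at 101 ± 7.19, and neither knock-out group passed against it (adjusted p = 0.2 in DKO and 0.0567 in Sqstm1 KO). Rock1, a kinase downstream of RhoA, fell in DKO, at 88.5 ± 9.3, against 181 ± 26.5 in Sqstm1 KO (adjusted p = 0.0195, lost without DKO replicate 3 at 0.0988 and in a fit of those 2 groups alone at 0.0679) and 167 ± 21.4 in WT (adjusted p = 0.0341). Its call against WT ended on omitting any of WT replicates 1 to 3 (adjusted p = 0.0563, 0.153 and 0.163) or DKO replicates 1 to 3 (0.0632, 0.0655 and 0.143). Rras2, a Ras-family GTPase, fell in DKO, at 31.5 ± 4.4, against 80.8 ± 14.6 in Sqstm1 KO (adjusted p = 0.0104, lost without DKO replicate 3 at 0.0616) and 86.4 ± 21 in WT (adjusted p = 0.00716, lost without WT replicate 3 at 0.0551). Enah, an actin regulator in slit and netrin signalling, was higher in DKO than in Sqstm1 KO (84.1 ± 9.1, against 41.2 ± 10.8, adjusted p = 0.0452). That call was lost in each fit but 1 that left out a single library, with adjusted p up to 0.127. It was also lost with TMM scaling (0.0527) and in a fit of those 2 groups alone (0.114). WT lay between them at 69.5 ± 14.3, and neither knock-out group passed against it (adjusted p = 0.612 in DKO and 0.152 in Sqstm1 KO).

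**Figure D5:**
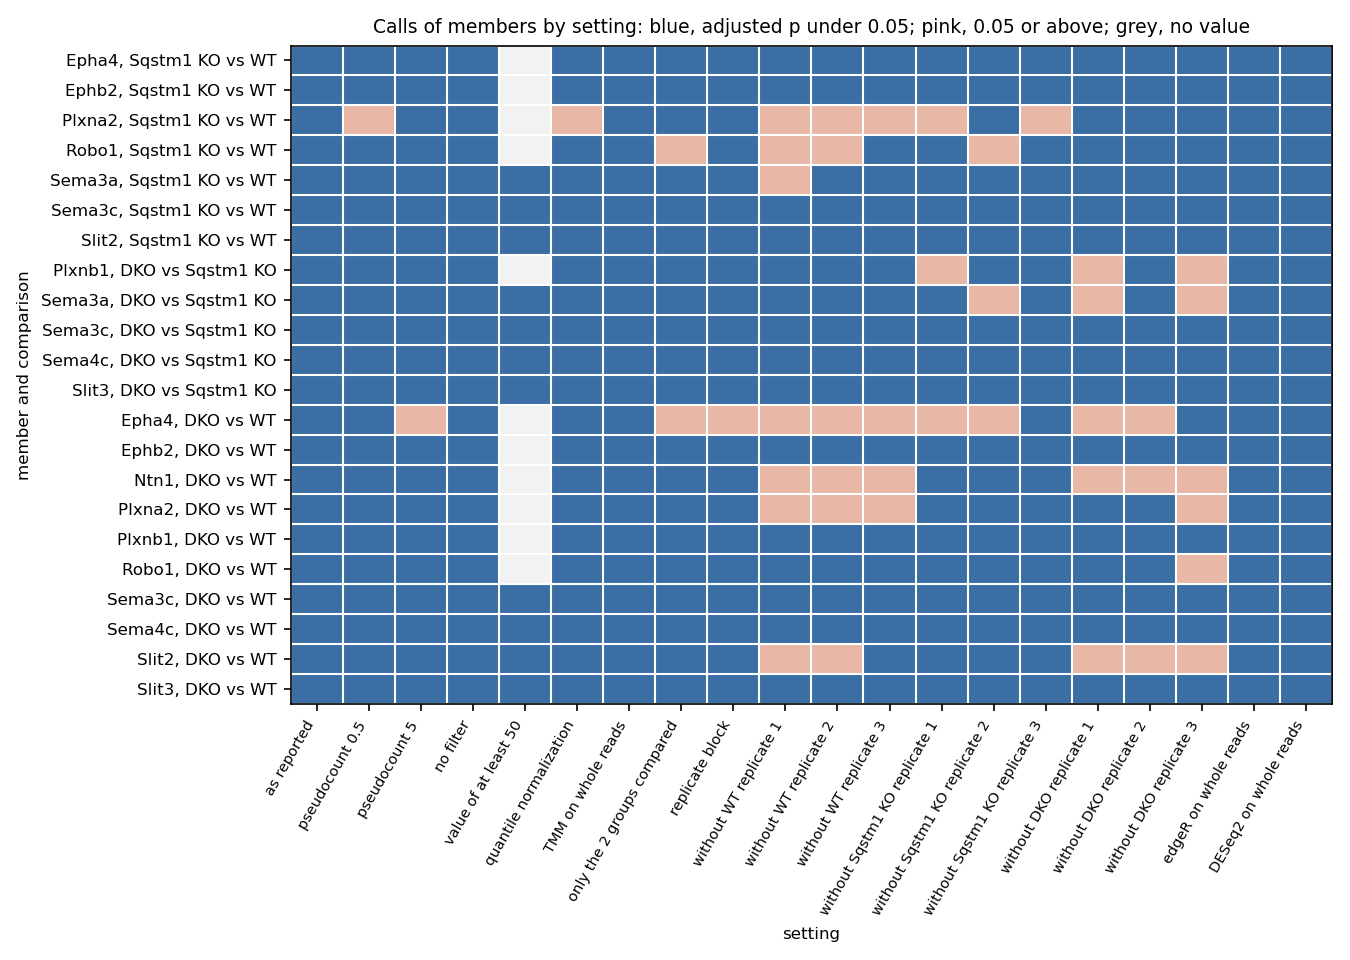
Each of the 22 gene and comparison pairs that passed the threshold (rows) under each setting (columns), with blue for an adjusted p under 0.05, pink for 0.05 or above and grey where the gene was not among those tested. All calls of Slit3, Sema3c, Sema4c and Ephb2 stayed blue wherever a value was given.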

How the data were processed

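STAR, DESeq2 and the build GRCm39 are named in the submitters' processing notes, without versions. How reads were assigned to genes, on which strand and with which annotation is not given in the sources used here. Each deposited value is a signal per gene, a read count scaled by the authors with a factor for its library. All 121126 values above 0 were whole multiples, within 0.01, of the smallest value of their library, and division by that value recovered the reads. No sample column was left out.

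Values were tested on log2(value + 1) with limma, with a trended prior variance, all 9 libraries and no covariate. Tests were two-sided with 14 degrees of freedom, those of the prior included, and 10118 genes reached 10 in 3 or more libraries. The code was tested on simulated counts. Exact permutation of 3 against 3 libraries reaches no p below 0.1. Alternatives varied the pseudocount, filter, scaling, groups fitted, a replicate block and the libraries, with the genes kept when a library was omitted, and used edgeR and DESeq2 on the recovered reads. Ratios for groups of 1 to 3 reads carry exact conditional intervals, and groups without reads a floor of 3 counts per group. The intervals cover counting error alone, as no molecular identifiers are recorded. Ratios to the floor leave out the counting error of the group with reads. The genes described and the marker and partner lists were chosen with earlier results of these data known. Genes past the threshold are given by library, other tested genes averaging at least 50 by group and the rest by range, with some relatives and genes of few reads added after their values were seen. Partner genes were named by smallest p, up to 4 per direction. Exon overlaps came from GENCODE and start regions from RefSeq, on GRCm38, by symbol. R was 4.3.3, with edgeR 4.0.16, limma 3.58.1 and DESeq2 1.42.0.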

Additional observations from a re-analysis of the deposited data

How the results depend on the processing

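Of the 22 calls of guidance genes, 12 were kept in every alternative that gave a value and 0 changed direction. Fits that left out 1 library lost a call 38 times and kept it 160 times, and other settings lost one 6 times and kept it 203 times. Over those omissions the number of guidance genes called was 6 to 10 in DKO against WT, 3 to 6 in DKO against Sqstm1 KO and 5 to 7 in Sqstm1 KO against WT, and the number of partner genes 2 to 16, 2 to 10 and 3 to 6. When a value of 50 was required, 9 guidance genes in place of 29 were tested, of which 4 were called in DKO against WT, 4 in DKO against Sqstm1 KO and 3 in Sqstm1 KO against WT, and 37 partner genes, of which 2 were called in Sqstm1 KO against WT. DESeq2 called 8 partner genes in Sqstm1 KO against WT. In a fit of the 2 groups alone 16 partner genes were called in DKO against WT and 3 in DKO against Sqstm1 KO. With a replicate block, 9, 6 and 9 guidance genes were called in DKO against WT, DKO against Sqstm1 KO and Sqstm1 KO against WT, and 9, 7 and 5 partner genes. Libraries were closest to the same-numbered library of another group in 13 of 18 cases, where 6 would be if the 3 were equally close, a hint of pairing from the data and not the design. The labels do not say that a number marks a shared animal or day, and the correlations of deviations, -0.115 to 0.178, did not all exceed 0.1, so the block was kept as an alternative. With edgeR the guidance counts were 10, 5 and 7, and with DESeq2 12, 5 and 7. Without a filter all 45 guidance genes were tested, and 14, 7 and 7 were called in the same order. The shares of all genes called under these alternatives are not given here, so the counts are not set against a background. Between 819677 and 1467793 reads per library limit what can be seen in genes near a value of 10.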
